A study of Rattus norvegicus with 8 samples.

Results

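The nuclear receptors of the liver were examined in rats on 2 diets. The set is a list of 31 genes, the receptors that sense bile acids, oxysterols, fatty acids, drugs, thyroid hormone, retinoids and steroids together with the orphan receptors found beside them in hepatocytes. A member was every probe whose gene name on the array was one of these symbols, and all 31 of the 25512 gene names on the array were found, with 71 probes. Liver RNA of male Sprague Dawley rats, an outbred laboratory strain labelled as weighing 180 to 200 g, was hybridised to 1-colour Agilent arrays. High-fat samples (n = 4) came from rats given a high-fat diet, labelled as 60%, for 12 weeks and control samples (n = 4) from rats given a normal diet for 12 weeks. The series title concerns factors tied to diet-induced insulin resistance. Whether the 8 samples came from 8 animals is not said in the labels, and p-values here then reflect only how these samples vary, which may in part be technical. All values are from whole liver.

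Nuclear receptors are transcription factors that carry a DNA-binding domain and, in most members, a pocket for a small lipophilic ligand. Many of those that sense metabolites bind DNA as heterodimers with a retinoid X receptor (RXR), whereas steroid receptors such as the glucocorticoid receptor act mainly as homodimers. Ligand binding exchanges corepressors for coactivators, so that the mRNA level of a receptor and the activity of its targets are separate quantities. In hepatocytes these receptors set bile acid synthesis, lipogenesis, fatty acid oxidation, drug clearance and the fasting response.

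The probes that the results turn on are shown first, as 30 of their 60 bases, copied from the deposited arrays and written 5′ to 3′. For Rarg, which encodes retinoic acid receptor γ, the stretch below is shared by both probes that were above background, and its capitals mark AATAAA, the usual polyadenylation signal. The other Rarg sequence is the start of a probe that was above background on no array, shown because it is annotated to the same transcript and lies farther 5′.
Rarg, shared by both bright probes: gctgagttttctatttttgcaaAATAAAgt
Rarg, dim probe: tgtatacgtgtcaccgtgacaaaaactgta
For Thra, which encodes thyroid hormone receptor α, the array has a probe annotated only to the TRα1 transcript, a probe annotated only to the TRα2 transcript and a probe annotated to both.
Thra, TRα1: actcttcctggaggtctttgaggatcagga
Thra, TRα2: aaggacagcagcttctcggaatgcatgttg
Thra, both: tacctgctggcgtttgagcactacgtcaac
For Nr1i3, which encodes the constitutive androstane receptor (CAR), 3 probes of different parts of the transcript are shown because they share no long run of bases and so read the gene separately.
Nr1i3, probe 1: tataaacagcgcatactcatatgaaatcca
Nr1i3, probe 2: aagaggtcgcgctgatcctcaacaaccaca
Nr1i3, probe 3: aaagcatctttgcaactgagtcagcagcag
On rn4, the build of the files, one bright Rarg probe lies at chr7:140991447-140991506 on the minus strand and the dim one at chr7:140997104-140997163 on the same strand. Nr1i3 probe 1 is at chr13:87108479-87108538 and probe 2 at chr13:87107518-87107577, both on the plus strand, and the Thra probe for both transcripts is at chr10:87537328-87537387 on the plus strand. The files leave the other bright Rarg probe, Nr1i3 probe 3 and both Thra probes for single transcripts unmapped. No annotation of exons on this build was used here.

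Signal depth differed between arrays, with 50.4% to 71.9% of probes well above background. The dimmest arrays were control replicate 1 and high-fat replicate 1. Across all probes, 47.9% were well above background on all 8 arrays, and 53.3% of gene names had such a probe. Of the receptors, 26 of 31 (83.9%) had a probe well above background on all 8 arrays, and 51 of the 71 member probes met this condition. Nr2f1, the gene of the orphan receptor COUP-TFI, was above background on 7 arrays. Hnf4g (HNF4γ), Thrb (thyroid hormone receptor β) and Esr1 (estrogen receptor α) were above background on 4 arrays each, and Nr2c2, the gene of the orphan receptor TR4, on at most 2. A probe was tested if it was well above background on at least 4 arrays, which left Nr2c2 untested and gave 30 tested members with 60 probes. In all, 7 member probes were above background on no array, 2 of Nr2c2 and 1 each of Nr2f1, Nr3c2, Ppard, Rarb and Rarg. The other probes of Nr3c2, Ppard, Rarb and Rarg were above background on all 8 arrays, so that detection depended on the probe.

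No receptor passed the threshold between diets, with limma and Benjamini-Hochberg adjustment over all 31535 tested probes. The count was 0 of 30 at an adjusted p of 0.05, in either direction, against 163 of all 18587 tested genes (0.877%). At an unadjusted p under 0.05 it was 2 of 30 members (6.67%), Rarg and Nr2c1, against 15.6% of all genes. The control and high-fat values did not overlap in 1 of 30 members (3.33%), Rarg, against 11.1% of all genes. Log2 changes from control to high-fat ran from -0.45 (Nr0b2) to 0.81 (Nr1i3), with 18 members higher and 12 lower. Their median was 0.09, beside 0.00 over all tested genes, and their median absolute change was 0.23, beside 0.21 over all tested genes. The 95% interval of the change lay within 1 log2 unit of 0, that is within a doubling or halving, for 25 of 30 members, and within 0.5 for 4 of them, Nr1h2, Nr2f1, Nr3c1 and Thra. The 5 whose interval reached beyond 1 were Nr0b2, Nr1i2, Nr1i3, Rarg and Esr1. With 4 arrays a group, changes within these intervals could go undetected. The intervals are not adjusted for the number of probes tested, so a change could leave out 0 and still miss the threshold. Rarg was such a case, with an interval of 0.30 to 1.07 and a limma adjusted p of 0.11.

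**Figure D1:**
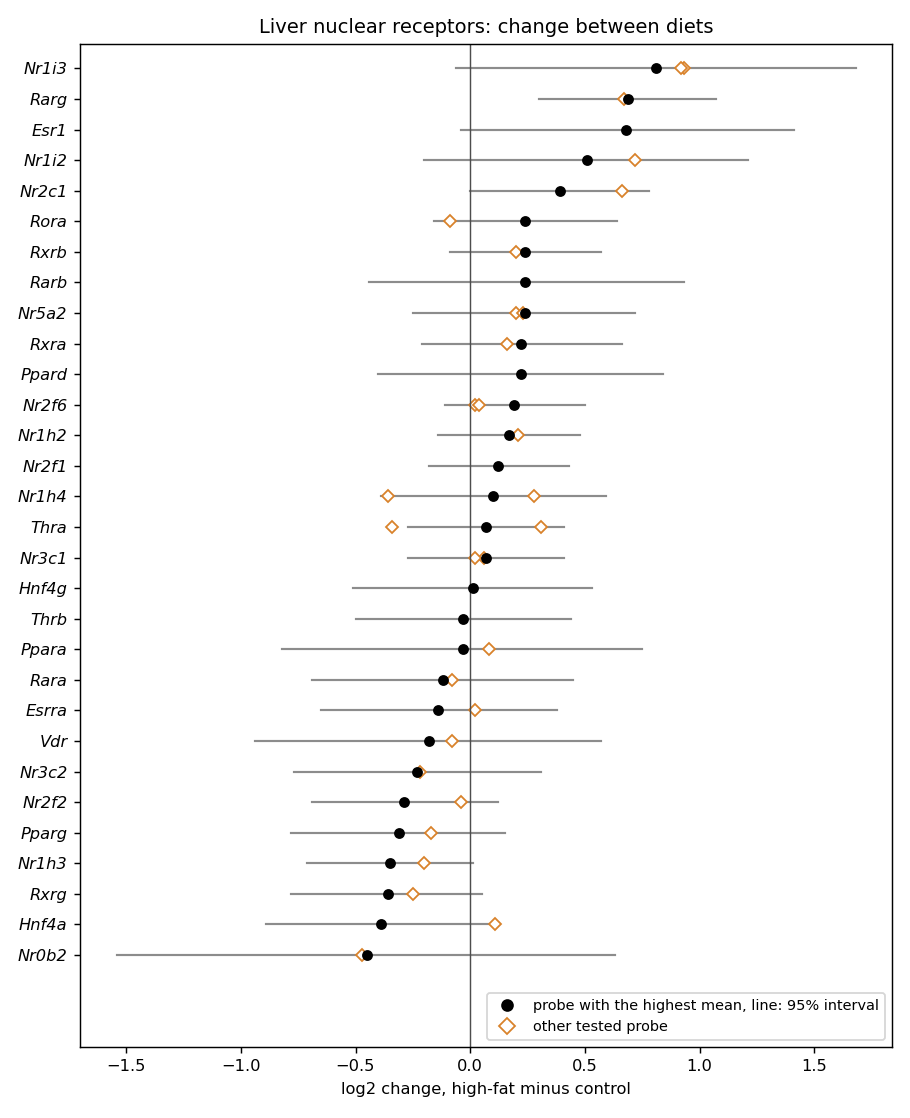
Log2 change of each tested receptor from control to high-fat liver (x axis, log2 units) with members on the y axis in order of change. Black points are the probe with the highest mean of each gene with its 95% interval, and open diamonds are other tested probes of the same gene. Changes of the black points run from -0.45 for Nr0b2 to 0.81 for Nr1i3, and the tested probes of Nr1h4, Thra, Hnf4a, Ppara, Rora and Esrra lie on both sides of 0.

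Several probes of a gene gave a check on these changes. Of the 24 members with more than 1 tested probe, 6 had probes that differed in sign, Nr1h4, Thra, Hnf4a, Ppara, Rora and Esrra. In Nr2f2, Nr2f6, Rarg, Rxra, Rxrb and Rora, 2 of the tested probes shared a run of at least 30 bases, up to 58 in Rarg, and so read the same stretch of RNA. Values in each sentence below are normalized log2 intensities, where 0 is each array's 75th percentile over the probes detected throughout. They are compared between samples of 1 probe only, because brightness differs between probes for reasons other than RNA amount. In whole liver, fewer cells of a type and less RNA per cell cannot be told apart.

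**Figure D2:**
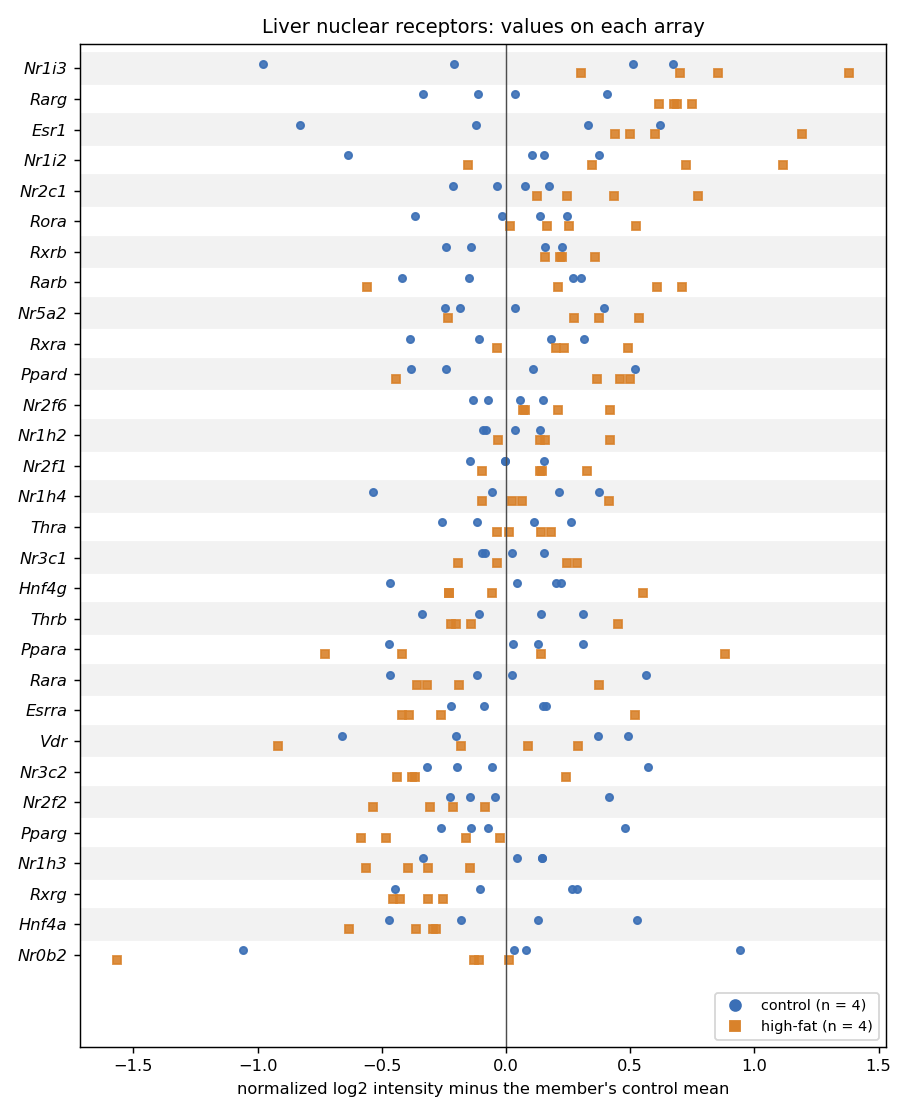
Normalized log2 intensity of the 30 tested receptors on each of the 8 arrays, minus the mean of the 4 control arrays of the same member (x axis, log2 units), with members on the y axis in order of change. Blue circles are the control and orange squares the high-fat arrays. Rarg is the member whose control and high-fat points do not overlap, and Nr0b2 has the widest spread, with a within-group SD of 0.78.

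CAR and the pregnane X receptor (PXR, encoded by Nr1i2) are the drug sensors of the liver and switch on P450 enzymes and transporters. Nr1i3 had the largest change of the standing probes. Its probe 1 read 0.71, 0.55, -0.94 and -0.17 in control replicates 1 to 4 and 0.74, 1.42, 0.34 and 0.89 in high-fat replicates 1 to 4. Control 3 and control 4 were low, and the groups overlapped. The log2 change was 0.81 (SE 0.38, 95% interval -0.06 to 1.68, adjusted p = 0.36). Probe 2 changed by 0.93 (SE 0.35, adjusted p = 0.25). Probe 3 read -3.01, -2.88, -3.47 and -2.90 in controls and -1.97, -1.76, -2.59 and -2.28 in high-fat liver. Every high-fat value of probe 3 lay above every control value, with a change of 0.92 (SE 0.22, adjusted p = 0.098), short of the threshold. The 3 probes thus moved by 0.81 to 0.93, and the change of probe 1 was 0.45 within slide row 1, 1.17 within slide row 2 and 0.49 without control replicate 3.

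Nr1i2 read 3.15, 2.93, 2.14 and 2.88 in controls and 2.62, 3.50, 3.12 and 3.89 in high-fat liver. The change of 0.51 (SE 0.31, adjusted p = 0.49) was 0.02 within slide row 1 and 1.0 within slide row 2. The second Nr1i2 probe changed by 0.72 (SE 0.36, adjusted p = 0.38), with row values of -0.05 and 1.49. In the standing probes of both genes the diets overlapped. Of the CAR and PXR targets, 1 of 18 tested passed the threshold, beside 0.877% of all tested genes, and the list median was 0.00. Abcb1a, which encodes the efflux pump P-glycoprotein, fell from a mean of -5.78 to -7.18 (log2 change -1.40, SE 0.23, adjusted p = 0.042). It was above background on 3 control and 2 high-fat arrays, its change was -0.55 after normexp background correction, and its adjusted p was 0.074 to 0.11 when any 1 of the 8 arrays was left out. Cyp2c7, a P450 of the liver, read 0.96 in controls and 4.61 in high-fat liver (log2 change 3.64, SE 0.70, adjusted p = 0.058). Cyp3a23-3a1, a P450 inducible through PXR, differed by -0.77 (SE 0.20, adjusted p = 0.13).

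Retinoic acid receptors bind the retinoic acid made from vitamin A and work with the RXRs, which also partner most of the metabolite sensors. Rarg was the member with the smallest unadjusted p. Its standing probe read -3.62, -3.40, -3.25 and -2.88 in controls and -2.60, -2.67, -2.61 and -2.54 in high-fat liver. The high-fat values lay close together and above all 4 controls. The mean was -3.29 ± 0.31 (SD, n = 4) in controls and -2.60 ± 0.05 (SD, n = 4) in high-fat liver, a log2 change of 0.69 (SE 0.17, 95% interval 0.30 to 1.07, limma adjusted p = 0.11). The second bright probe changed by 0.67 (SE 0.14, adjusted p = 0.076), and since it shares 58 bases with the first, it is no separate reading of the gene. Both bright probes cover the AATAAA stretch printed above and the 5′ probe was above background on none of the 8 arrays. The difference was 0.88 in slide row 1 and 0.49 in slide row 2.

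The other retinoic acid receptors overlapped between diets. Rara (RARα) read between -0.77 and 0.26 in controls and between -0.66 and 0.07 in high-fat liver, a change of -0.12 (95% interval -0.69 to 0.45). Rarb (RARβ) ranged from -3.96 to -3.24 in controls and from -4.10 to -2.83 in high-fat liver, a change of 0.24 (95% interval -0.44 to 0.93). Whether their changes differ from that of Rarg was not tested. Among the RXRs, Rxra changed by 0.22 (SE 0.19) and Rxrb by 0.24 (SE 0.14). Rxrb was tight in high-fat liver, at -1.58 to -1.38, and reached from -1.98 to -1.51 in controls. Rxrg, the RXRγ gene, read 0.34, 0.71, 0.73 and 0.00 in controls and -0.01, 0.02, 0.19 and 0.13 in high-fat liver. Control 4 fell among the high-fat values, and the change was -0.36 (SE 0.18, adjusted p = 0.40). None of these 5 genes passed the threshold.

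Of the retinoid genes, 1 of 7 tested passed the threshold, beside 0.877% of all tested genes, with a list median of 0.41. Lrat, which encodes lecithin retinol acyltransferase, the enzyme that stores retinol as its ester, rose. It was above background on no control array and on all 4 high-fat arrays (limma adjusted p = 0.0039). Its high-fat mean was 70.4-fold above a control floor. Per control array, that floor was the higher of the probe's own signal and the lowest signal well above background there. The figure is no lower bound on the fold, because undetected signals can lie above that floor. Lrat met the detection filter only through the high-fat arrays, and was not tested under the filter on all 8 arrays. With the tested probes kept the same, it passed the threshold with any 1 of the 8 arrays left out. These fits keep the filter that Lrat met through the high-fat arrays, so they do not check it. Its fitted log2 difference of 7.20 was 3.52 after normexp background correction. Crabp2, a retinoic acid-binding protein gene, differed by 0.64 (SE 0.30, adjusted p = 0.35). The stellate cells of the liver store vitamin A. Of their marker genes, 1 of 11 tested passed the threshold, Reln, beside 0.877% of all tested genes. Reln had a change of 1.34 (SE 0.13, adjusted p = 0.015), and its call was not tested with other processing or left-out arrays. Colec11 and Des differed by 0.72 and -0.70, and the mean level of the list was -2.89 to -2.76 in controls and -2.76 to -2.49 in high-fat liver. The part of these cells in the values of Rarg or Lrat was not tested.

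**Figure D3:**
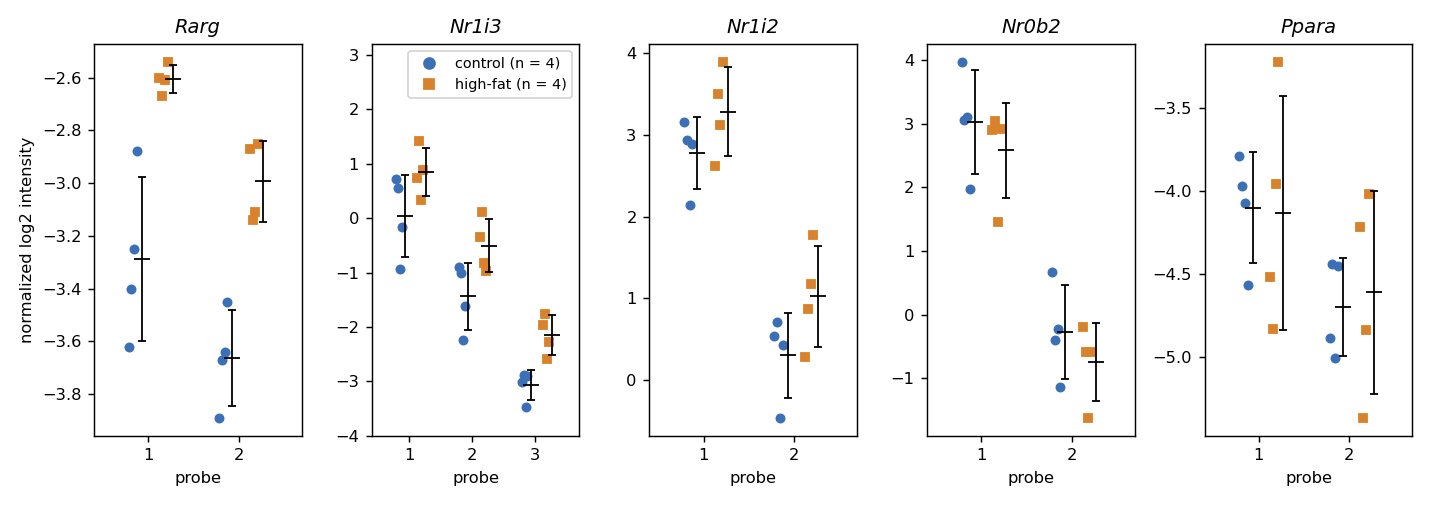
Normalized log2 intensity (y axis, a scale of its own in each panel) of the tested probes of Rarg, Nr1i3, Nr1i2, Nr0b2 and Ppara by probe number (x axis). Blue circles are the 4 control and orange squares the 4 high-fat arrays, with mean and SD beside them. All high-fat points of both Rarg probes and of Nr1i3 probe 3 lie above the control points, while the groups overlap in the other probes.

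Thyroid hormone receptors bind triiodothyronine and control lipogenic and mitochondrial genes. TRα1 binds the hormone, whereas TRα2, made from the same gene through another last exon, does not. The Thra probe for both transcripts read -4.06, -4.20, -3.83 and -3.68 in controls and -3.80, -3.93, -3.76 and -3.98 in high-fat liver, a change of 0.07 (SE 0.15, 95% interval -0.27 to 0.41), with the groups overlapping. The TRα1 probe read -5.59, -5.96, -5.63 and -5.63 in controls and -5.42, -5.32, -5.25 and -5.58 in high-fat liver. It was well above background on 3 control and 4 high-fat arrays. Its groups just failed to overlap, and the change was 0.31 (SE 0.14, adjusted p = 0.34). The TRα2 probe read -3.56, -3.91, -3.83 and -3.79 in controls and -4.16, -4.12, -3.91 and -4.29 in high-fat liver. Its change was -0.34 (SE 0.14, adjusted p = 0.28), and control 2 and high-fat 3 met at -3.91.

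The probes for single Thra transcripts thus differed in sign, and their difference within each array was examined after these values had been seen. The TRα1 minus TRα2 difference was -2.03, -2.04, -1.79 and -1.83 in controls and -1.26, -1.21, -1.34 and -1.30 in high-fat liver. Every high-fat array lay above every control array, by more than the spread within either group. The mean was -1.93 ± 0.13 (SD, n = 4) in controls and -1.27 ± 0.06 (SD, n = 4) in high-fat liver, a shift of 0.65 (SE 0.10, 95% interval 0.42 to 0.89), or a ratio 1.57 times as high. Fitted with limma over all 15239 pairs of tested probes of 1 gene, the pair ranked 18 and had an adjusted p of 0.17, and 2 pairs passed the threshold (0.0131%). The shift was 0.80 in slide row 1 and 0.50 in slide row 2, lay between 0.61 and 0.69 with any 1 array left out, and was 0.36 (adjusted p = 0.39) after normexp background correction. The level of either transcript against the other is not given by 2 probes, only the shift between diets. The exon specific to TRα2 overlaps the neighbouring gene Nr1d1 on the opposite strand, and Nr1d1, which encodes the clock repressor REV-ERBα, had a log2 change of 0.14 (SE 0.21, adjusted p = 0.82). The part of Nr1d1 in the shift of the Thra probes was not tested.

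**Figure D4:**
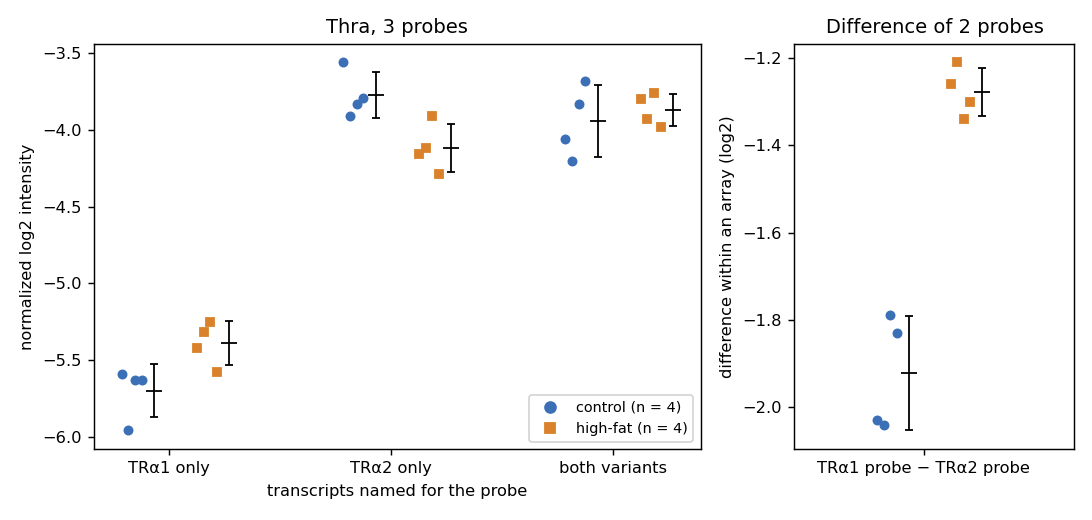
Left, normalized log2 intensity (y axis) of the 3 Thra probes by the transcripts annotated to them (x axis). Right, the difference between the TRα1 and TRα2 probes within each array (y axis, log2 units). Blue circles are the 4 control and orange squares the 4 high-fat arrays, with mean and SD beside them. The differences are -2.04 to -1.79 in controls and -1.34 to -1.21 in high-fat liver and do not overlap.

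Thrb, the main thyroid hormone receptor gene of hepatocytes, was dim. The standing probe was above background on 2 control and 2 high-fat arrays, read -7.80 to -7.15 in controls and -7.68 to -7.01 in high-fat liver, and changed by -0.03 (95% interval -0.50 to 0.44). The list median of the 13 tested thyroid hormone receptor targets was -0.46. Beside 0.877% of all tested genes, 1 of these 13 passed the threshold, in the lower direction. That gene was Fasn, which encodes fatty acid synthase and is also a target of the liver X receptors. It read 1.42, 1.89, 2.94 and 1.87 in controls and -0.68, -1.49, -0.14 and -1.53 in high-fat liver, so that all high-fat values lay below all controls. The log2 change was -2.99 (SE 0.40, adjusted p = 0.025). Its adjusted p rose to between 0.053 and 0.075 without control replicate 2, 3 or 4 or high-fat replicate 2 or 4. Serpina7, which encodes thyroxine-binding globulin, differed by -1.25 (SE 0.27, adjusted p = 0.078), and Me1, which encodes malic enzyme, by -1.07 (SE 0.24, adjusted p = 0.082).

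The farnesoid X receptor (FXR, Nr1h4) is the bile acid sensor, and it induces the small heterodimer partner (SHP, Nr0b2). SHP is a receptor without a DNA-binding domain that represses bile acid synthesis through its action on LRH-1 (Nr5a2). Nr1h4 read 2.33, 2.76, 2.60 and 1.85 in controls and 2.80, 2.29, 2.45 and 2.41 in high-fat liver. The values overlapped widely, with a change of 0.10 (SE 0.22, 95% interval -0.39 to 0.59). Its other probes changed by 0.28 (SE 0.24) and -0.36 (SE 0.32), so the sign rested on the probe. Nr0b2 was the most variable receptor. It read 3.97, 3.06, 3.11 and 1.97 in controls and 2.90, 3.04, 1.46 and 2.92 in high-fat liver, a change of -0.45 (SE 0.48, 95% interval -1.54 to 0.63). Its second probe, which shares only 6 bases in a row with the first, was likewise highest in control 1, at 0.67, and lowest in high-fat 3, at -1.62. Nr5a2 changed by 0.24 (SE 0.21), and its other probes by 0.20 and 0.23. The Nr5a2 change was -0.20 in slide row 1 and 0.67 in slide row 2.

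None of the 15 tested FXR and bile acid genes passed the threshold, and the list median was 0.10. At an unadjusted p under 0.05 there were 2, beside 15.6% of all tested genes. The smallest p values belonged to Slco1a1, Cyp7b1 and Fgfr4. Slco1a1, which encodes an uptake transporter for organic anions, read 0.27, 0.04, 0.11 and 0.12 in controls and 0.58, 0.69, 0.67 and 0.74 in high-fat liver (change 0.54, SE 0.11, adjusted p = 0.075). Cyp7b1, which encodes oxysterol 7α-hydroxylase, differed by 2.32 (SE 0.67, adjusted p = 0.16). Its controls were split, at -2.78 and -2.33 in slide row 1 and -0.01 and -0.16 in slide row 2. Fgfr4, the receptor for the intestinal bile acid signal, differed by 0.30 (SE 0.17, adjusted p = 0.45).

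The liver X receptors are oxysterol sensors that promote lipogenesis and cholesterol export. Nr1h3 (LXRα) read 3.01, 3.01, 2.91 and 2.53 in controls and 2.72, 2.55, 2.47 and 2.30 in high-fat liver. Control 4 was low and fell among the high-fat values. The change was -0.35 (SE 0.16, 95% interval -0.71 to 0.01, adjusted p = 0.33), -0.37 in slide row 1 and -0.34 in slide row 2. Its second probe changed by -0.20 (SE 0.18). Nr1h2 (LXRβ) was one of the steadiest receptors, between -0.32 and -0.09 in controls and between -0.26 and 0.19 in high-fat liver, with a change of 0.17 (SE 0.14, 95% interval -0.14 to 0.48).

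The list median of the 14 tested LXR targets was -0.30, with 11 lower and 3 higher, where 50.6% of all tested genes were higher. Beside 0.877% of all tested genes, 2 of these 14 passed the threshold, both lower. These were Fasn, above, and Arl4c, a small GTPase gene, which read -1.59, -2.31, -1.86 and -2.13 in controls and -3.29, -3.08, -3.56 and -3.14 in high-fat liver (log2 change -1.29, SE 0.19, adjusted p = 0.031). The high-fat values of Arl4c lay below all controls. With any 1 of the 8 arrays left out its adjusted p was 0.053 to 0.094. Pltp, which encodes phospholipid transfer protein, differed by -0.63 (SE 0.13, adjusted p = 0.067).

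Peroxisome proliferator-activated receptors bind fatty acids. Ppara, which drives fatty acid oxidation in hepatocytes, read -3.79, -3.97, -4.07 and -4.57 in controls and -4.52, -4.83, -3.96 and -3.22 in high-fat liver. The high-fat values lay on both sides of the controls. The change was -0.03 (SE 0.34, 95% interval -0.82 to 0.75), with -0.80 within slide row 1 and 0.73 within slide row 2. Ppard (PPARδ) changed by 0.22 (SE 0.27) and Pparg (PPARγ), which is mainly an adipocyte receptor, by -0.31 (SE 0.20, adjusted p = 0.53). Pparg read -1.40, -2.02, -2.14 and -1.95 in controls, with control 1 high, and -2.04, -2.36, -1.90 and -2.46 in high-fat liver.

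None of the 27 tested PPARα targets passed the threshold, with 6 at an unadjusted p under 0.05, beside 15.6% of all tested genes. Of these 27, 20 were higher and 7 lower in the high-fat mean, and the median was 0.21. Over all tested genes, 50.6% were higher and the median was 0.00. The groups did not overlap in 4 of the 27, beside 11.1% of all tested genes. Acadm and Acadl, which encode the medium-chain and long-chain acyl-CoA dehydrogenases, were among these. Acadm read 3.15 to 3.54 in controls and 3.74 to 4.05 in high-fat liver (change 0.56, SE 0.14, adjusted p = 0.12), and Acadl 3.95 to 4.31 and 4.53 to 4.70 (change 0.47, SE 0.12, adjusted p = 0.13). Cyp4a2, which encodes a fatty acid ω-hydroxylase, read 4.57, 4.31, 2.41 and 2.94 in controls and 4.66 to 5.38 in high-fat liver (change 1.45, SE 0.47, adjusted p = 0.20). Its low controls were those of slide row 2.

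HNF4α maintains the hepatocyte programme. The standing Hnf4a probe read -2.26, -1.86, -2.57 and -2.86 in controls and -2.67, -2.75, -3.02 and -2.68 in high-fat liver, a change of -0.39 (SE 0.22, adjusted p = 0.44). Its second probe, with no long shared run, changed by 0.11 (SE 0.19), so that the direction was not settled. The dim Hnf4g changed by 0.01 (95% interval -0.51 to 0.53). None of the 16 tested HNF4α targets passed the threshold, and their median was 0.07. At an unadjusted p under 0.05 there were 3, beside 15.6% of all tested genes. The smallest p values were those of Cyp2c11, the male-typical P450 of rat liver (change 0.64, SE 0.16, adjusted p = 0.11), and of Otc, a urea cycle enzyme gene (0.63, SE 0.19, adjusted p = 0.18).

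The steroid receptors and their relatives gave no call. Nr3c1, the glucocorticoid receptor gene, read between -1.57 and -1.32 in controls and between -1.67 and -1.19 in high-fat liver, and its 3 probes changed by 0.07, 0.06 and 0.02. The 95% interval of the first, -0.27 to 0.41, was among the narrowest. Nr3c2, the mineralocorticoid receptor gene, changed by -0.23 (SE 0.24) and by -0.22 at its second probe, with control 1, at -2.66, and high-fat 1, at -2.99, higher than the rest. Esr1 was above background on 1 control and 3 high-fat arrays. It read -7.57, -8.28, -7.12 and -6.83 in controls and -7.01, -6.95, -6.26 and -6.85 in high-fat liver, a change of 0.68 (SE 0.32, adjusted p = 0.35) at the edge of detection. In the authors' deposited table the Esr1 change was -0.14, and after normexp background correction 0.08. Esrra (ERRα), a partner of the coactivator PGC-1α in mitochondrial gene control, changed by -0.14 (SE 0.23), with high-fat 4 at 1.25 against 0.31 to 0.47 in the rest of its group. None of the 17 tested glucocorticoid receptor targets passed the threshold, and their median was 0.13. At an unadjusted p under 0.05 there were 2, beside 15.6% of all tested genes. Cps1, a urea cycle enzyme gene, differed by 0.98 (SE 0.32, adjusted p = 0.20), Dusp1, a phosphatase gene, by 1.27 (SE 0.52, adjusted p = 0.29) and Igfbp1, an insulin-repressed gene, by -2.12 (SE 1.02, adjusted p = 0.37).

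Among the remaining orphan receptors, Nr2c1 (TR2) read -3.08, -2.97, -3.26 and -2.87 in controls and -2.80, -2.92, -2.61 and -2.27 in high-fat liver. High-fat 2 fell just below control 4, and the change was 0.39 (SE 0.17, adjusted p = 0.32). Its dimmer second probe changed by 0.66 (SE 0.24, adjusted p = 0.24). Its relative Nr2c2 could not be tested. Nr2f2 (COUP-TFII), abundant in endothelial and stellate cells, changed by -0.29 (SE 0.18), and Nr2f1 by 0.12 (SE 0.14). The second Nr2f2 probe, which shares 52 bases with the first, changed by -0.04 (SE 0.25). Nr2f6 (EAR2) changed by 0.19 (SE 0.13) with a within-group SD of 0.15, one of the smallest of the set. Its other probes changed by 0.02 (SE 0.14), at a probe sharing 57 bases with the first, and 0.04 (SE 0.26). Rora, the RORα gene of the clock, changed by 0.24 (SE 0.18) at one probe and -0.09 at the other. Vdr, the vitamin D receptor gene, ranged from -3.30 to -2.15 in controls and from -3.56 to -2.35 in high-fat liver (change -0.18, SE 0.33).

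Coregulators and the remaining nuclear receptors gave no call. None of the 22 tested coregulator genes passed the threshold, with 2 at an unadjusted p under 0.05, 14 lower and 8 higher, and a median of -0.10. The smallest p values were those of Nrip1, the corepressor RIP140 (change -0.67, SE 0.26, adjusted p = 0.27), Ncoa2, a p160 coactivator (-0.46, SE 0.18, adjusted p = 0.28), and Crebbp, an acetyltransferase (-0.22, SE 0.13, adjusted p = 0.49). None of the 10 tested nuclear receptors outside the 31 passed it, with 1 at an unadjusted p under 0.05. That was Nr1d2, the clock repressor REV-ERBβ, which read -2.85, -2.97, -3.19 and -2.90 in controls and -2.58, -2.20, -2.27 and -1.41 in high-fat liver, without overlap (change 0.86, SE 0.24, adjusted p = 0.15). Nr4a1 (NUR77) differed by -0.60 (SE 0.36, adjusted p = 0.48) and Pgr, the progesterone receptor gene, by -0.40 (SE 0.25, adjusted p = 0.51). Over the 10 lists together, 4 of 150 tested genes passed the threshold, 1 higher and 3 lower, beside 0.877% of all tested genes. The 1 higher, Lrat, met the detection filter only through the high-fat arrays. At an unadjusted p under 0.05 there were 30 of 150, beside 15.6% of all tested genes. Slco1a1, Cyp2c7, Pltp, Me1, Serpina7 and Cyp2c11, which did not pass, had adjusted p values of 0.032 to 0.049 with eBayes trend and robust.

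**Figure D5:**
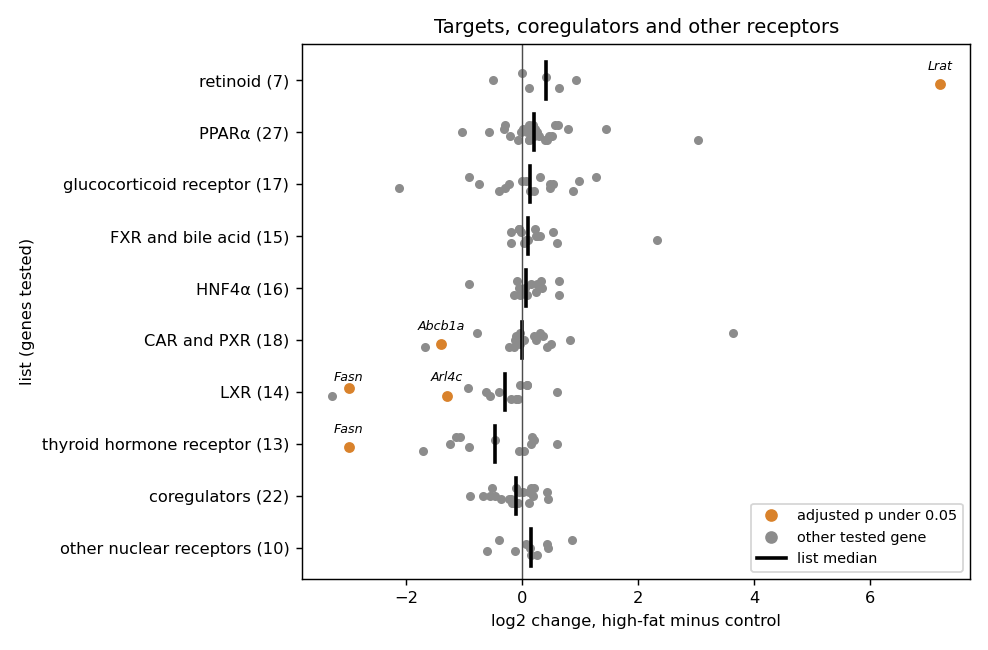
Log2 change from control to high-fat liver (x axis, log2 units) of each tested gene of the 10 lists (y axis, number tested in brackets). Orange points passed an adjusted p of 0.05, grey points did not, and the black bar is the list median. Fasn, Arl4c and Abcb1a lie to the left and Lrat to the right, and list medians run from -0.46 for thyroid hormone receptor targets to 0.41 for retinoid genes. The Lrat point is a measured difference from controls not well above background.

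Cell type and clock markers were read on the same arrays. Beside them, 0.877% of all tested genes passed the threshold and 50.6% were higher in the high-fat mean. Hepatocyte markers, which define the labelled tissue, had a mean level of 5.67 to 5.90 in controls and 5.68 to 6.05 in high-fat liver and a median change of -0.05. None passed, and the smallest p values were those of Cps1, Fgb (-0.14, SE 0.14, adjusted p = 0.70) and Ahsg (0.14, SE 0.16, adjusted p = 0.73). All 11 tested Kupffer cell markers were lower in high-fat liver, with a median of -0.26 and none past the threshold. The list level of these macrophage genes was 1.03 to 1.67 in controls and 0.36 to 1.27 in high-fat liver. Marco, a macrophage scavenger receptor gene, differed by -2.38 (SE 0.65), Vsig4 by -0.78 (SE 0.24) and Clec4f, a Kupffer cell lectin gene, by -0.60 (SE 0.18). Of 11 lymphocyte markers, 7 were lower and 4 higher, with a median of -0.20. Only Cd3g passed, lower by a log2 change of -1.44 (SE 0.24, adjusted p = 0.042), while Cd3d and Cd8a differed by -0.69 and -0.71. The Cd3g call was not tested with other processing or left-out arrays. None of the cholangiocyte (7 tested, median -0.59), endothelial (10, median 0.07), adipocyte (3, median 0.67) and erythroid (6, median 0.51) markers passed. Of these, Epcam, Spp1 and Cftr differed by -0.62, -1.64 and -0.71, and Lyve1, Stab2 and Clec4g by 0.96, 0.60 and -0.58. Cidec, Fabp4 and Cfd differed by 0.67, 0.76 and -0.13, and Alas2, Hbb and Ahsp by 1.43, 1.05 and 0.64. None of the 15 clock genes passed either, with a median of 0.58 and 13 of 15 higher, and Per2, Cry1 and Nfil3 differed by 0.74, 1.19 and 0.65, while the labels give no hour of collection. The part of cell makeup or hour in the receptor values was not tested.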

How the data were processed

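Liver RNA of 8 samples, 4 per diet, was read on 8 arrays of 1 slide in 2 rows, scanned on 1 day, per the file headers. Spot intensity was deposited as produced by Agilent Feature Extraction 10.7.3.1, with background subtracted, per the file headers. A value table that the authors deposited is on a log2 scale. Set against scanner values scaled to the 75th percentile over every non-control probe, its columns correlated at 0.999 or above, with 98.47% or more of values within 0.05, which settled scale, centring and direction. Its column medians were -3.10, -3.21, -3.14 and -3.17 for controls 1 to 4 and -3.14, -3.20, -3.16 and -3.20 for high-fat 1 to 4.

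Control spots were left out. Outlier spots were left out except where all spots of a probe on an array were outliers, and 0 spots were saturated. Log2 processed intensity was set relative to each array's 75th percentile over probes well above background on all 8 arrays, and the spots of each of 46883 probes were averaged. The 31535 probes that 4 or more arrays detected were fitted with limma 3.58.1 (lmFit, eBayes) in R 4.3.3. P-values were adjusted over all of them by Benjamini-Hochberg, and the threshold was 0.05. Each gene was read at its tested probe with the highest mean, its standing probe. The number of arrays limits the precision.

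Sample titles gave group and replicate number. The members and lists were chosen with earlier results of these data known. Every member is named, and of each target list those past the threshold or, below 3, the smallest p up to 3. Nr1d1, Scd, Thrsp, Srebf1 and the Thra probe difference were chosen after their values were seen. Alternatives covered background correction, scaling, filters, the deposited table, variance models, weights, blocks and left-out arrays. Of the listed genes, Cyp2b1, Cyp3a1, Ugt1a1, Lcor, Sirt1, Nr2e3, Timd4, Stab1, Hhip, Plin1, Hba1 and Hba2 were not analysed here, and a few items that the naming rule covers are not reported here.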

Additional observations from a re-analysis of the deposited data

Results flagged for a closer look

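In 6 of 116 groups of 4 arrays examined, counting the 30 tested receptors, the list genes reported and the Thra probe difference in each diet, 1 array lay far from the other 3 by Dixon's test. Chance flags about 1 in 20 such groups. High-fat 3 was low for Nr0b2, at 1.46 against 2.90 to 3.04 in the other high-fat arrays, and high for Thrb, at -7.01 against -7.68 to -7.60, close to background. High-fat 1, one of the 2 dimmest arrays, was high for Nr3c2, at -2.99 against -3.67 to -3.60. High-fat 2 was low for Ppard, at -4.88 against -4.07 to -3.94. High-fat 4 was high for Esrra, at 1.25 against 0.31 to 0.47. Control 2 was low for Pltp, at -1.21 against -1.04 to -1.01.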

How the results depend on the processing

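The count of receptors at an adjusted p under 0.05 was 0 in the main analysis and in all alternatives run, each left-out array included. At a threshold of 0.1 it was 0 in the main analysis, read at the standing probes. Rarg came under 0.1 with probes above background on all 8 arrays (0.062), without control replicate 4 (0.072), with trend and robust (0.081), as the mean of its tested probes (0.082), after normexp (0.087), and with quantile normalization and array weights (0.099 each). Away from the standing probes, Rarg probe 2 had 0.076 and Nr1i3 probe 3 had 0.098. Of the 30 tested members, 16 kept the sign of their change in every fitted alternative and 14 did not, counting other tested probes of the gene. The median change of the members, 0.09, was 0.03 after normexp background correction, with the deposited value table and without the 2 dimmest arrays, and 0.06 to 0.15 with 1 array left out, where the spread between arrays was 0.05. With the positive-and-significant flag, 28 members in place of 26 were detected on all 8 arrays. The replicate block gave 0 members and a median of 0.09, and 0 of the list genes past the threshold in place of 4, with adjusted p values of 0.075 for Lrat and Fasn, 0.094 for Abcb1a and 0.12 for Arl4c. Other settings moved this count both ways, to 10 with trend and robust, 7 with probes above background on all 8 arrays, 6 after normexp, 5 with array weights, 1 without the filter and 1 without the 2 dimmest arrays. Cyp2c7, Me1 and Serpina7 passed with the first 3 of these settings, at 0.023 to 0.046, and Abcb1a did not pass after normexp (0.15). Neither Abcb1a nor Lrat was tested with probes above background on all 8 arrays. Slco1a1 passed with trend and robust (0.035), the filter on all 8 arrays (0.042) and array weights (0.047). Pltp passed with trend and robust (0.038) and the filter on all 8 arrays (0.037), and Cyp2c11 with trend and robust (0.049). Same-numbered samples were not shown to be paired, with correlations of their deviations of -0.12, 0.26, 0.23 and 0.01, and not every sample correlated best with its own number. Of all genes, 163 passed in the main analysis, 253 after normexp, 331 with probes above background on all 8 arrays, 333 with trend and robust, 98 with slide row as a block, 5 without the filter, 12 without the 2 dimmest arrays, 16 to 91 with 1 array left out and 0 with the replicate block. No probe of Hnf4g, Thrb, Esr1 or Nr2c2 was above background on more than 4 arrays, which limits what these signals show.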

Other observations

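Genes of fat synthesis other than those that passed the threshold were looked at after their values were seen. Scd, which encodes stearoyl-CoA desaturase, read 3.01, 2.54, 3.25 and 0.90 in controls and -2.48, -0.08, 2.17 and -2.99 in high-fat liver (log2 change -3.27, SE 1.10, limma adjusted p = 0.21). Thrsp, a lipogenic gene that responds to thyroid hormone, read 2.69 to 3.87 in controls and 0.83 to 2.68 in high-fat liver (change -1.70, SE 0.42, adjusted p = 0.11). Srebf1, which encodes the lipogenic transcription factor SREBP-1 and is an LXR target, read 2.53 to 4.52 in controls and 1.75 to 3.76 in high-fat liver (change -0.94, SE 0.52, adjusted p = 0.44). High-fat 3 was the highest of the high-fat arrays for Scd, Thrsp, Srebf1 and Fasn.

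Of the 30 receptors with a mapped probe, 5 lie on rat chromosome 7 of rn4, Nr1h4, Nr2c1, Ppara, Rarg and Vdr, and 4 on chromosome 1, Nr1h2, Nr2f2, Esr1 and Esrra.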
